A study of Homo sapiens with 8 samples.

Results

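The microfibril, fibulin and latent TGF-beta binding protein genes were examined in cells of 143B, an established human osteosarcoma cell line. The set holds 10 genes, taken by name: the fibrillins FBN1 and FBN2, the microfibril-associated glycoproteins MFAP2 and MFAP5, the fibulins EFEMP1, EFEMP2 and FBLN1, and the latent TGF-beta binding proteins LTBP1, LTBP2 and LTBP3. The table gives a value in at least 1 library for 16590 genes, all 10 members among them, and 9 members passed the filter for the test. The 4 knockout libraries came from cells transfected for 48 h with a plasmid labelled for NELL1 knockout (genotype label, NELL1 knockout). The 4 control libraries came from cells of the same line transfected for 48 h with the vector plasmid (genotype label, control). The transfection was transient, and the share of cells that carried an edited gene is not given in the sources used here. The submitters describe the 4 libraries of each group as biological replicates. NELL1 codes for a glycoprotein that cells secrete and that promotes bone formation; the series title names the matrisome, the genes of matrix proteins and their partners.

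Fibrillins are long glycoproteins that assemble outside the cell, on a fibronectin network, into microfibrils, the thin filaments on which elastin is laid down in elastic tissues and which also occur without elastin in bone. MFAP2 and MFAP5 bind along fibrillin, and fibulins bridge fibrillin, elastin and the crosslinking enzymes of the lysyl oxidase family. The LTBPs attach the inactive form of TGF-beta to fibronectin and fibrillin, from where integrins and proteases release it.

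Levels are the deposited log2 values per transcript length, changes are knockout minus control on the log2 scale, and a gene was called when limma's Benjamini-Hochberg adjusted p over all 9016 tested genes was under 0.05. The low end of the values showed steps of whole reads, from which 1 read was worth about the same in every library; if the values were RPKM, the steps imply 34.3 to 39.0 M reads per library. The group means of the 9 tested members stood for an estimated 156 to 1030 reads per kilobase of transcript. Knockout libraries 1 and 2 were close to each other, as were knockout libraries 3 and 4 (SD across genes of the difference, 0.12 and 0.13). Control libraries differed from each other by 0.10 to 0.29, the most between 1 and 3. The 2 sets of knockout libraries differed by 0.46 to 0.50, more than any knockout library from any control library (0.36 to 0.45). Every member is therefore given by library and by set. NELL1 itself lay at an estimated 0.29 to 1.49 reads per kilobase in the 7 libraries with a value. Its level did not check the labels (p = 1 by a two-sided exact permutation test, 35 splits). Of the mesenchymal and bone markers, VIM (10.2 to 10.9) and CD44 (5.27 to 6.22) were high and RUNX2 was at 0.05 to 0.43. COL1A2 and THY1 had a value in 4 and 3 libraries. The summed level of the 9 genes was 10.89 to 10.97 in the controls and 10.34 to 10.79 in the knockouts. VIM made up most of this sum, at 10.79 to 10.865 and 10.19 to 10.66. SPARC was higher in the knockouts (6.06 to 6.15) than in the controls (5.23 to 5.94). NT5E was lower (3.70 to 4.37 against 4.77 to 5.18), as was S100A4 (1.206 to 1.751 against 1.752 to 2.164). COL1A1 overlapped (-1.45 to 0.90 against -0.33 to 0.65). Of 5 leukocyte markers 2 had a value, each in 6 libraries: CD14 at -4.90 to -4.22 in the controls and -2.94 to -2.67 in the knockouts, and LYZ at -5.82 to -4.66 and -5.65 to -3.89. Their summed level was -4.45 to -3.42 in the controls and -5.65 to -2.34 in the knockouts, and the defining markers PTPRC and CD3E were blank throughout. The lowest knockout sum was that of LYZ alone, so CD14 was blank in at least 1 knockout library. Endothelial KDR was at -4.73 to -2.49 in the controls and -4.84 to -0.82 in the knockouts, and PECAM1, CDH5 and VWF were at -3.305 or below. Of 5 epithelial markers EPCAM was present at 1.83 to 2.76 and CLDN4 was at -4.47 to -2.44. KRT14 was blank, and CDH1 and KRT5 had a value in 2 and 3 libraries. The part of these markers in the results was not tested.

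Of the 9 tested members 1 was called, MFAP2, which was lower in the knockout libraries. That share (11.1%) was near the share of all tested genes that were called (13.1%; 6.10% in the lower direction). For 5 members (MFAP2, EFEMP1, EFEMP2, FBN2 and LTBP3) the 4 knockout values and the 4 control values did not overlap, which was so for 22.9% of all tested genes. The change was below 0 for 6 members and above 0 for 3, with a median of -0.57 beside 0.01 over all tested genes. FBN1, FBLN1 and LTBP1 had changes of opposite sign in the sets of knockout libraries, and the other 6 tested members had the same sign in both.

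**Figure D1:**
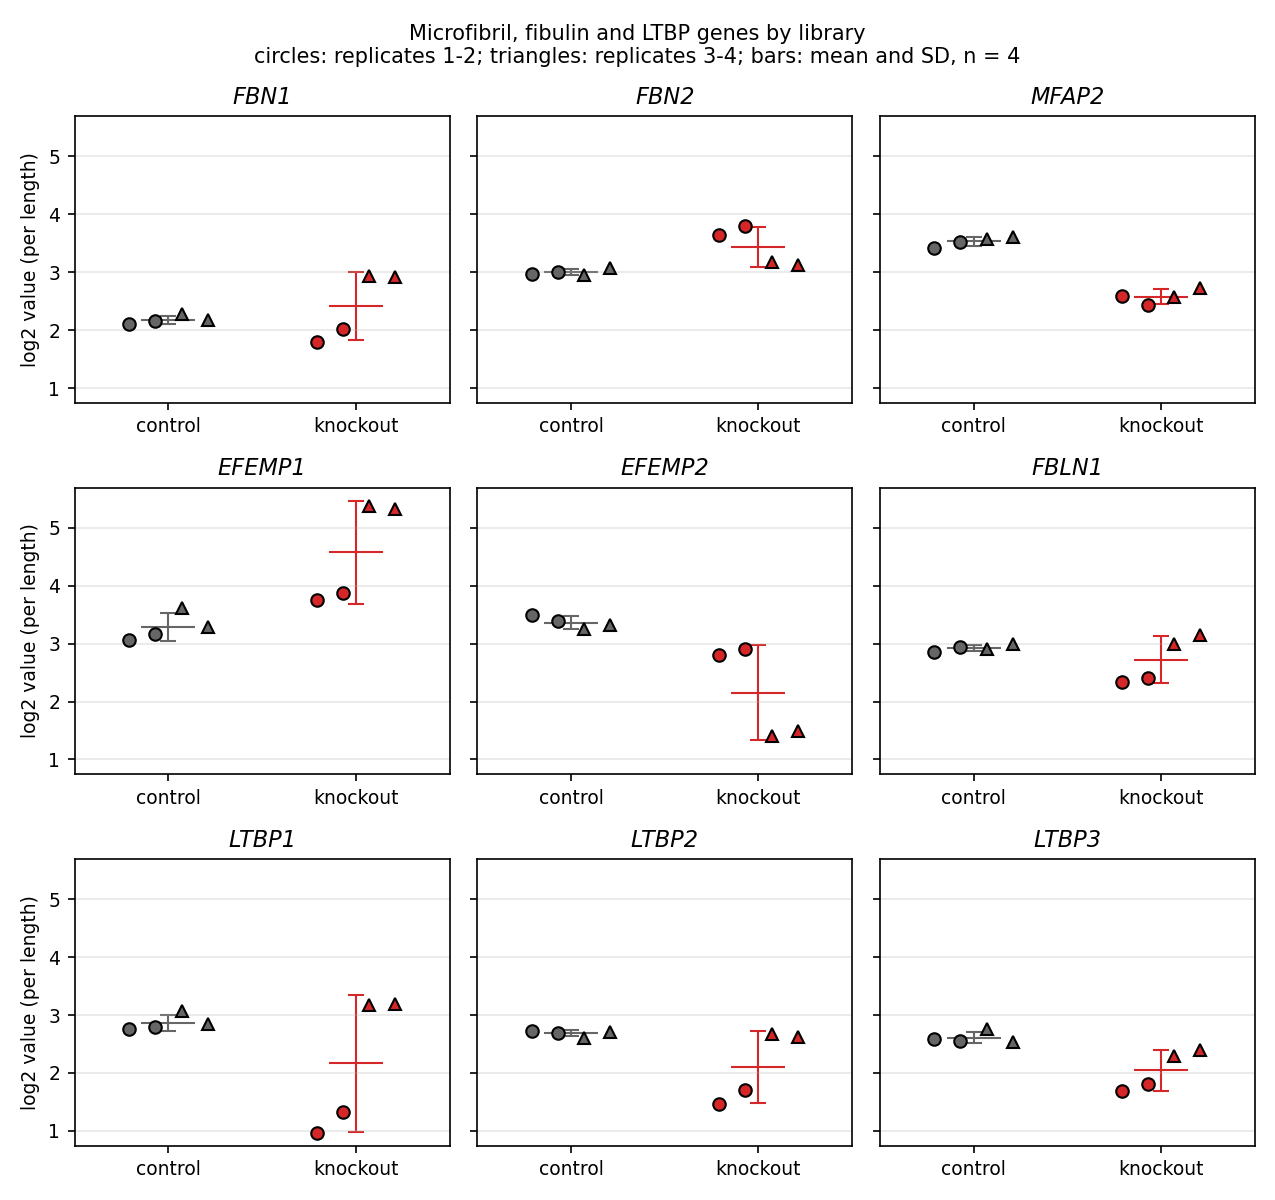
Deposited log2 value per transcript length (vertical axis) of the 9 tested members in each control (grey) and knockout (red) library, with circles for replicates 1-2, triangles for replicates 3-4, and bars for the mean and SD of 4 libraries. In MFAP2 the 4 knockout values sit together at 2.43 to 2.73, below all controls; in LTBP1 they split into 0.97 and 1.33 against 3.18 and 3.19.

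The stretches just upstream of the start that RefSeq gives were read for the members, since those of MFAP2, EFEMP2 and LTBP3 belong to the 3 members whose knockout values all lay below the controls. RefSeq (GRCh38.p14) gave such a stretch for 8 of the 10 members, with none for EFEMP1 and MFAP5. The 250 bases upstream are printed 5′ to 3′ on the gene's own strand, the minus strand in each case. Capitals mark matches, on either strand, to 5 motifs whose letters are given with the counts; matches may overlap each other, also between motifs.
MFAP2, chr1:16981584-16981833: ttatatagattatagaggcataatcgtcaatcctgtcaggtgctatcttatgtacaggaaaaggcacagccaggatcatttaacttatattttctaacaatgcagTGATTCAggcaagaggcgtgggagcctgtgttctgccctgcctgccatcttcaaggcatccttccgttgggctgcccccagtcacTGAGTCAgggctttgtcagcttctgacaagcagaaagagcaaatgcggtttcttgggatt
EFEMP2, chr11:65872801-65873050: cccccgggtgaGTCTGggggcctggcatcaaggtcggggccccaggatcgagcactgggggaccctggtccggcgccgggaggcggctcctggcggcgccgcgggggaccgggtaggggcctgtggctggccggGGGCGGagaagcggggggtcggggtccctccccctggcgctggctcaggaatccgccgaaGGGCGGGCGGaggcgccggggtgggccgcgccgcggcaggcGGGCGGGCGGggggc
LTBP3, chr11:65558360-65558609: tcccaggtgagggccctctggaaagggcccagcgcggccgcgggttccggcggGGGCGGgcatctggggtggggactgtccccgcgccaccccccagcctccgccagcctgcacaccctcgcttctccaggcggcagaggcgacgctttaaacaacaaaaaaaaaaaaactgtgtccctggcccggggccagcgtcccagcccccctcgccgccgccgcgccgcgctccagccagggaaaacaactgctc
The MFAP2 stretch held 2 matches to the AP-1 motif TGANTCA and no GC box. At least 1 AP-1 match was found in 6.57% of 35116 stretches of the same length. MFAP2 had a GC content of 46.8% in its stretch, the lowest of the 8 members, against a median of 58.0% over all stretches. The EFEMP2 stretch held 5 GC boxes, spelled GGGCGG and present in 42.6% of stretches. It also held 1 match to the SMAD motif CAGAC, present in 38.0%, with a GC content of 81.6%, the highest of the 8. The LTBP3 stretch held 1 GC box. Among the 8 members a GC box occurred in 5, a SMAD match in 3, and an AP-1 match in 1. The TEAD motif CATTCC occurred in 1 member and in 11.9% of all stretches. The TATA box, TATAAA, occurred in none of the 8 and in 10.7% of all stretches. Each share of all stretches counts those with at least 1 match and is not matched for GC content. A match is a run of letters and not a measured binding site.

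MFAP2 encodes a small microfibril-associated glycoprotein that binds fibrillin and can bind TGF-beta. The gene lies on chromosome 1, positions 16974502 to 16981583, minus strand (GRCh38.p14, as for all positions here). Its level was 3.43, 3.52, 3.58 and 3.60 in control libraries 1 to 4 and 2.58, 2.43, 2.57 and 2.73 in knockout libraries 1 to 4. The groups did not overlap, and the highest knockout value was 2.73 against a lowest control value of 3.43. MFAP2 fell from 3.53 ± 0.08 to 2.58 ± 0.12 (SD, n = 4 each), a change of -0.95 ± 0.08 (SE; limma adjusted p = 0.00111), that is, to 0.516 of the control level. The fall was alike in both sets, -0.97 in replicates 1-2 and -0.94 in replicates 3-4. It was called with each close knockout pair counted as 1 library (limma adjusted p = 0.0235), when 1.20% of all tested genes were called.

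MFAP5, the second glycoprotein of this family, was barely measured. The gene lies on chromosome 12, positions 8645943 to 8662826. Its level was -6.76, -6.74 and -6.60 in control libraries 1 to 3 and -5.00, -6.67 and -5.82 in knockout libraries 1 to 3, and the cells of both libraries 4 were blank. These values stood for an estimated 0.34 to 1.07 reads per kilobase, so that no difference was detectable at this depth (p = 0.2 by a two-sided exact permutation test of 20 splits, which cannot go below p = 0.1).

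The fibulins EFEMP1 and EFEMP2 stood on opposite sides of the controls in all 4 knockout libraries, without passing the test. EFEMP1 encodes fibulin-3, a short fibulin of basement membranes and elastic tissue, and lies on chromosome 2, positions 55865967 to 55923782. Its level was 3.06, 3.17, 3.62 and 3.29 in control libraries 1 to 4 and 3.75, 3.87, 5.37 and 5.32 in knockout libraries 1 to 4. The knockout values lay above every control value, by a small margin in libraries 1 and 2 and by a wide one in libraries 3 and 4. The change was 1.29 ± 0.39 (SE; limma adjusted p = 0.0606), with 0.70 in replicates 1-2 and 1.89 in replicates 3-4. It missed the threshold in the fit without a block and passed it with the replicate number as a block (limma adjusted p = 0.0349, when 10.2% of all tested genes were called), but not with the close knockout pairs averaged (limma adjusted p = 0.139).

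EFEMP2 encodes fibulin-4, which is needed for elastic fibre assembly and brings lysyl oxidase to elastin. It lies on chromosome 11, positions 65866441 to 65872800, minus strand. Its level was 3.49, 3.40, 3.25 and 3.32 in control libraries 1 to 4 and 2.80, 2.91, 1.402 and 1.499 in knockout libraries 1 to 4. Every knockout value lay below every control value, and libraries 3 and 4 lay far below libraries 1 and 2. The change was -1.21 ± 0.35 (SE; limma adjusted p = 0.0525), with -0.59 in replicates 1-2 and -1.83 in replicates 3-4, and with the replicate block it passed the threshold (limma adjusted p = 0.0439), but not with the close knockout pairs averaged (limma adjusted p = 0.124). EFEMP2 overlaps MUS81 on the other strand; the library kit keeps strand, but whether the counting used it is not given in the sources used here. The change of MUS81 was -0.18 ± 0.07 (SE; limma adjusted p = 0.142).

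Both fibulins stood at similar levels per length in the controls, and at distant levels in knockout libraries 3 and 4. The level of EFEMP1 minus that of EFEMP2 was -0.43, -0.23, 0.38 and -0.03 in control libraries 1 to 4. In knockout libraries 1 and 2 this difference was 0.94 and 0.96, and in knockout libraries 3 and 4 it was 3.96 and 3.83. This comparison was chosen after the values were seen.

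**Figure D2:**
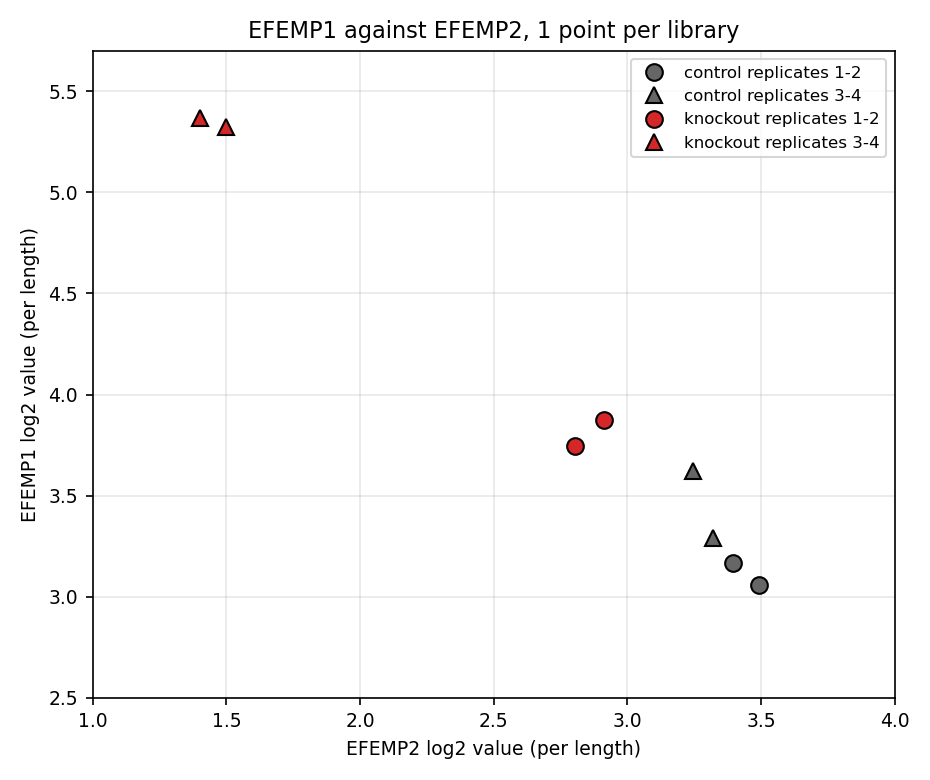
Log2 value per transcript length of EFEMP1 (vertical axis) against that of EFEMP2 (horizontal axis), 1 point per library, controls in grey and knockouts in red, circles for replicates 1-2 and triangles for replicates 3-4. Knockout libraries 3 and 4 stand alone at the top left, with EFEMP1 at 5.37 and 5.32 and EFEMP2 at 1.402 and 1.499.

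FBLN1 encodes fibulin-1, a fibronectin-binding fibulin, and lies on chromosome 22, positions 45502883 to 45601135, plus strand. Its level was 2.86, 2.93, 2.90 and 2.99 in control libraries 1 to 4 and 2.34, 2.41, 2.99 and 3.15 in knockout libraries 1 to 4. Knockout libraries 1 and 2 lay below all controls and libraries 3 and 4 at or above the highest control. Over all libraries the change was -0.20 ± 0.18 (SE; limma adjusted p = 0.501), with -0.52 in replicates 1-2 and 0.12 in replicates 3-4.

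Among the LTBPs the level was lower in knockout libraries 1 and 2 for all 3 genes, and only LTBP3 was also below every control in knockout libraries 3 and 4. LTBP1, the best known carrier of latent TGF-beta, lies on chromosome 2, positions 32946953 to 33399509, plus strand. Its level was 2.76, 2.80, 3.06 and 2.84 in control libraries 1 to 4 and 0.97, 1.33, 3.18 and 3.19 in knockout libraries 1 to 4. Knockout libraries 1 and 2 lay far below the controls and libraries 3 and 4 just above them. The change over all libraries was -0.70 ± 0.50 (SE; limma adjusted p = 0.388), with -1.63 in replicates 1-2 and 0.23 in replicates 3-4.

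LTBP2 binds fibrillin but, unlike its relatives, does not bind latent TGF-beta. The gene lies on chromosome 14, positions 74498183 to 74612237, minus strand. Its level was 2.72, 2.69, 2.61 and 2.71 in control libraries 1 to 4 and 1.46, 1.70, 2.66 and 2.61 in knockout libraries 1 to 4. Libraries 3 and 4 of the knockout fell inside the control range, and libraries 1 and 2 lay below it. The change was -0.57 ± 0.26 (SE; limma adjusted p = 0.185), with -1.13 in replicates 1-2 and -0.02 in replicates 3-4.

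LTBP3, a carrier of latent TGF-beta whose loss affects bone and teeth, lies on chromosome 11, positions 65538559 to 65558359, minus strand. Its level was 2.59, 2.55, 2.76 and 2.54 in control libraries 1 to 4 and 1.69, 1.80, 2.29 and 2.39 in knockout libraries 1 to 4. All knockout values lay below all control values. The change was -0.57 ± 0.16 (SE), and its limma adjusted p of 0.0503 missed the threshold by the fourth decimal; it was -0.83 in replicates 1-2 and -0.31 in replicates 3-4.

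The fibrillins differed from one another as well. FBN1 encodes the main fibrillin of adult tissue, whose mutations cause Marfan syndrome, and lies on chromosome 15, positions 48408313 to 48645709, minus strand. Its level was 2.10, 2.15, 2.27 and 2.18 in control libraries 1 to 4 and 1.80, 2.02, 2.93 and 2.91 in knockout libraries 1 to 4. The knockout libraries lay on both sides of the controls, 1 and 2 below and 3 and 4 above. The change over all libraries was 0.24 ± 0.25 (SE; limma adjusted p = 0.571), with -0.22 in replicates 1-2 and 0.69 in replicates 3-4.

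FBN2 encodes a fibrillin made mostly during development and lies on chromosome 5, positions 128257909 to 128538245, minus strand. Its level was 2.97, 3.00, 2.95 and 3.07 in control libraries 1 to 4 and 3.64, 3.80, 3.17 and 3.13 in knockout libraries 1 to 4. All knockout values lay above all control values, with libraries 3 and 4 close to the controls. The change was 0.44 ± 0.15 (SE; limma adjusted p = 0.0919), with 0.74 in replicates 1-2 and 0.14 in replicates 3-4. FBN1 was thus highest in knockout libraries 3 and 4 and FBN2 in knockout libraries 1 and 2.

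**Figure D3:**
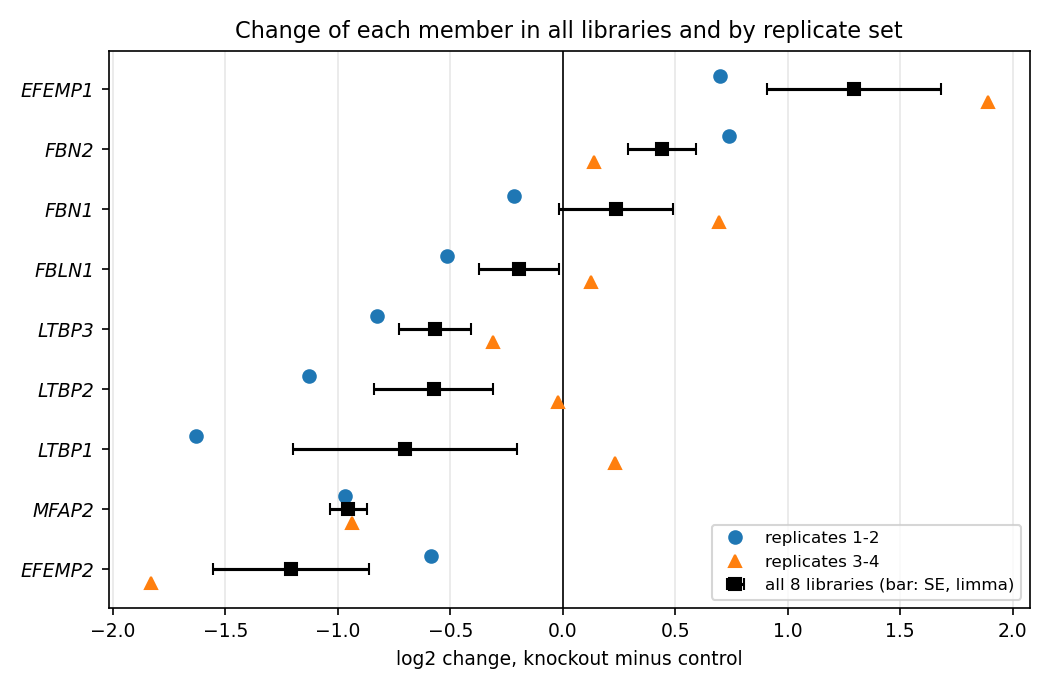
Log2 change, knockout minus control (horizontal axis), of the 9 tested members: black squares with SE bars from limma for all 8 libraries, blue circles for replicates 1-2 and orange triangles for replicates 3-4. The marks of MFAP2 coincide at -0.95, -0.97 and -0.94, while those of LTBP1 span -1.63 to 0.23.

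Whether the changes in replicates 1-2 differed from those in replicates 3-4 was not tested, because each set has only 2 libraries a group and the spread within a close pair may be technical. The labels do not say what the sets are. Fitted alone, replicates 1-2 called all 9 tested members and 59.7% of all genes, and replicates 3-4 called 5 members and 33.1% of all genes. A term for the sets in the fit of all 8 libraries called 5 members (MFAP2, FBN2, EFEMP1, EFEMP2 and LTBP3) and 25.2% of all genes. Raising the filter to a mean of at least 3 called 15.6% of the genes left. Without control library 1, 2, 3 or 4 the share of called genes was 4.92%, 4.78%, 15.0% and 4.34%, and 1 member, MFAP2, was called each time. Without knockout library 1, 2, 3 or 4 that share was 9.55%, 9.49%, 7.94% and 10.1%, with 3, 3, 1 and 2 members called.

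In the controls the order of the members by level per length was MFAP2 (3.53 ± 0.08), EFEMP2 (3.36 ± 0.11), EFEMP1 (3.28 ± 0.24), FBN2 (3.00 ± 0.05), FBLN1 (2.92 ± 0.06), LTBP1 (2.87 ± 0.14), LTBP2 (2.68 ± 0.05), LTBP3 (2.61 ± 0.10) and FBN1 (2.18 ± 0.07; SD, n = 4 for each). The ranges of neighbours in this order overlapped except between LTBP1 and LTBP2 and between LTBP3 and FBN1. MFAP5 lay far below at -6.70 ± 0.09 (SD, n = 3). In knockout libraries 1 and 2 LTBP1 was the lowest of the 9 tested members (mean 1.15). In knockout libraries 3 and 4 EFEMP2 was the lowest (mean 1.45). EFEMP1 was the highest in both (means 3.81 and 5.35).

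The members with the widest range over the libraries were EFEMP1 (2.31) and LTBP1 (2.22), and for each the 3 tested genes with the most similar pattern over the 8 libraries were found by Pearson's r, as a description without a test. The libraries fall into controls, knockout 1-2 and knockout 3-4, so such a value mostly ranks genes by the order of these sets. EFEMP1 was followed most closely by C9orf40, RFWD3 and NUSAP1 (r = 0.997 for each). LTBP1 was followed by MVP (r = 0.998), COL4A2 and IRF2BPL (r = 0.997 for each), of which COL4A2 encodes a basement membrane collagen chain.

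Among the other genes that build or crosslink microfibrils and elastic fibres, FN1 and VCAN were lower and EMILIN3 higher in the knockout libraries. Of 30 genes listed, 13 were tested, 3 were called (23.1%, beside 13.1% of all tested genes) and the median change was -0.06. FN1, which encodes the fibronectin on which fibrillin assembles, fell from a control level of 6.07 ± 0.07 to 4.82 ± 0.67 (SD, n = 4 each). Its change was -1.26 ± 0.29 (SE, limma adjusted p = 0.0261), with -1.86 in replicates 1-2 and -0.65 in replicates 3-4. VCAN, the proteoglycan versican that binds fibrillin, fell from 2.25 ± 0.14 to 1.73 ± 0.21 (SD over 4 libraries each) at a limma adjusted p = 0.0261. EMILIN3, an elastin-interface glycoprotein, rose from 1.91 ± 0.11 to 2.23 ± 0.11 (SD over 4 libraries each) at a limma adjusted p = 0.0364, and lost the call with the replicate block (limma adjusted p = 0.0561). The relatives of the members stayed uncalled: the change was 0.00 ± 0.07 for FBLN2 (limma adjusted p = 0.979), -0.09 ± 0.12 for FBLN5 (0.669) and -0.18 ± 0.20 for LTBP4 (0.590; SE). The crosslinking enzymes LOX, LOXL1 and LOXL2 gave changes of 0.31, 0.16 and 0.12 (limma adjusted p = 0.388, 0.519 and 0.466). None of the 3 calls held with the close knockout pairs averaged (limma adjusted p = 0.0774 for FN1, 0.104 for VCAN and 0.161 for EMILIN3). Each of FN1 and VCAN was also lost without control library 1, 2 or 4 or knockout library 2 (limma adjusted p = 0.0781, 0.0773, 0.0790 and 0.0514 for FN1 and 0.0537, 0.0616, 0.0865 and 0.0528 for VCAN). EMILIN3 kept the call only without control library 3 or knockout library 2 among the fits that left out 1 library (limma adjusted p up to 0.107).

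A further 11 genes of this list had 8 values but a mean under 1. In the fit without the filter 3 of them were called, and they are named after their values were seen. That fit called 8.30% of all its 13943 genes, and the share among genes with a mean under 1 alone was not counted. In the lists of latent TGF-beta genes and TGF-beta response genes given below, 8 and 4 genes were under the filter. That fit called 0 of them. EMILIN1, a glycoprotein that restrains TGF-beta processing, was at -1.61, -1.57, -1.43 and -1.81 in control libraries 1 to 4 and at -7.11, -4.39, -4.10 and -4.08 in knockout libraries 1 to 4 (limma adjusted p = 0.0246). That is an estimated 10.6 to 13.1 reads per kilobase in the controls and 0.248 to 2.28 in the knockouts, without overlap. ADAMTS6, a protease of the family that acts on microfibrils, was at -0.88 to -0.29 in the controls and at 1.20, 1.25, 0.18 and 0.17 in knockout libraries 1 to 4 (limma adjusted p = 0.0413). ADAMTSL4, which binds fibrillin-1, was at 0.57 to 1.03 in the controls and at -0.25 to 0.31 in the knockouts (limma adjusted p = 0.0246).

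Among the genes that hold, process or release latent TGF-beta, 4 integrin genes and the proteases MMP9 and MMP14 were called lower in the knockouts. The other tested proteases of the list were not called. MMP2, PLAT and PLAU changed by 0.05, 0.40 and 0.16 (limma adjusted p = 0.954, 0.154 and 0.653). FURIN, BMP1 and HTRA1 changed by -0.22, -0.47 and -0.63 (limma adjusted p = 0.576, 0.122 and 0.253). Of 28 listed genes 18 were tested and 6 were called (33.3%, beside 13.1% of all tested genes), all 6 lower (6.10% of all tested genes were called lower), and the median change was -0.28. Of the 5 tested integrin subunits of the list, a grouping made after the values were seen, 4 were called and ITGB3 was not (change -0.19; limma adjusted p = 0.589). ITGB6 and ITGB8 were under the filter and not called in the fit without it (limma adjusted p = 0.510 and 0.625). ITGA5, the fibronectin receptor subunit, fell from 5.21 ± 0.06 to 4.58 ± 0.14 and ITGAV from 4.50 ± 0.23 to 3.85 ± 0.11 (SD over 4 libraries each; limma adjusted p = 0.00409 and 0.0113). ITGB5 fell from 5.40 ± 0.03 to 4.56 ± 0.46 and ITGB1 from 7.70 ± 0.05 to 7.36 ± 0.10 (SD over 4 libraries each; limma adjusted p = 0.0306 and 0.0171). The other calls were the matrix proteases MMP9 (-2.46 ± 0.38, SE, limma adjusted p = 0.00696) and MMP14 (-1.20 ± 0.25, SE, limma adjusted p = 0.0180). In replicates 1-2 and 3-4 the change was -1.89 and -3.03 for MMP9, -1.48 and -0.92 for MMP14, and -1.21 and -0.46 for ITGB5. TGFB1, the ligand that LTBP1 and LTBP3 carry, had a control level of 4.41 ± 0.04 and a knockout level of 3.91 ± 0.34 (SD over 4 libraries) and was not called (change -0.50 ± 0.15, SE; limma adjusted p = 0.0647). With the close knockout pairs averaged, MMP9 and ITGA5 were the calls that remained (limma adjusted p = 0.0387 for each). Leaving out control library 1 or 4 ended the calls of MMP14 (limma adjusted p = 0.0504 and 0.0602), ITGB5 (0.0856 and 0.0860) and ITGB1 (0.0573 and 0.0686). Leaving out control library 2 ended those of ITGB5 (0.0844) and ITGB1 (0.0597), and leaving out control library 3 or knockout library 2 that of ITGB5 (limma adjusted p = 0.0566 and 0.0619).

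Genes known to respond to TGF-beta went both ways. Of 20 listed genes 15 were tested and 8 were called (53.3%, beside 13.1% of all tested genes), 3 higher and 5 lower (7.02% and 6.10% of all tested genes), with a median change of -0.27. The largest rises were those of the contractile gene TAGLN (2.59 ± 0.45, SE, limma adjusted p = 0.01002) and the matricellular gene CCN2 (0.81 ± 0.14, SE, limma adjusted p = 0.00913). TAGLN rose by 3.84 in replicates 1-2 and 1.34 in replicates 3-4, and CCN2 by 1.00 and 0.61. PMEPA1, an inhibitor of TGF-beta signalling, fell by 1.54 (limma adjusted p = 0.00435) and the cell cycle inhibitor CDKN1A fell by 0.93 (limma adjusted p = 7.899e-04). TGIF1, a SMAD corepressor, fell by 0.83 and JUNB, a subunit of AP-1, fell by 0.71 (limma adjusted p = 0.0137 and 0.00117). TAGLN, CCN2 and TGIF1 were no longer called with the close knockout pairs averaged (limma adjusted p = 0.0642, 0.0772 and 0.0625). Several genes of these lists were known from earlier results of these data to have changed, so their counts are not independent evidence of a direction.

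**Figure D4:**
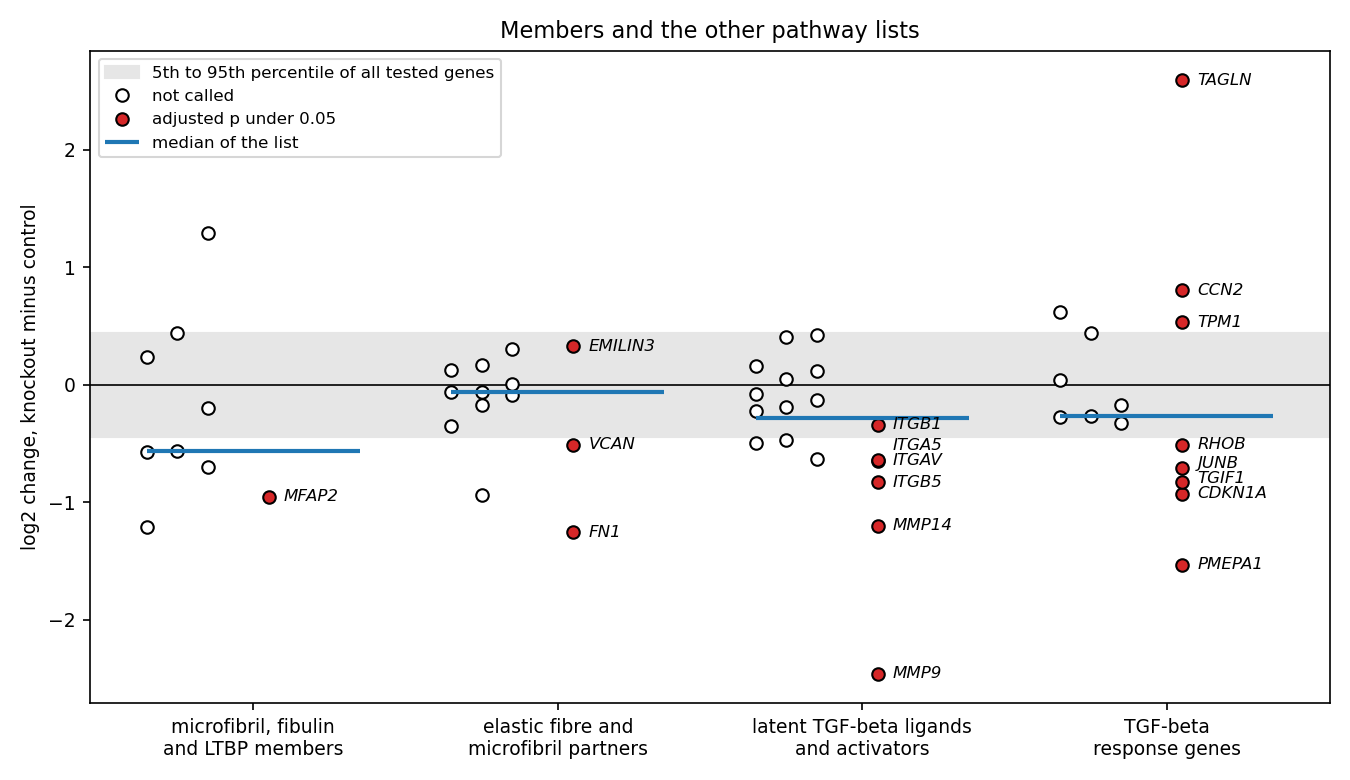
Log2 change, knockout minus control (vertical axis), of every tested gene among the 9 members and the 3 other lists, red where limma's adjusted p was under 0.05 and open otherwise, with the list's median as a blue line and the 5th to 95th percentile of all tested genes in grey. All called genes of the latent TGF-beta list lie below 0, while the response list has called genes on both sides, from PMEPA1 at -1.54 to TAGLN at 2.59.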

How the data were processed

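RNA of 8 libraries was measured by sequencing after TRIzol extraction and a stranded total-RNA kit, per the labels' protocols. The authors deposited 1 log2 value per gene symbol and library. The submitters' processing notes name bcl2fastq, Partek 7.0 and GRCh38; aligner, counting and annotation are not given in the sources used here. All libraries share the same quantiles, so the deposited log2 values were quantile normalized, which hides any shift of the whole transcriptome. Base 2 and scaling by length were read from the values of genes with 1 transcript in GENCODE 29 and a value under -3. Value plus log2 length fell within 0.1 of a whole read (1 to 5 reads) for 60.5% to 71.4% of these genes. Of the range, 33.3% lies that near. The 1-read step of each library was placed where the most of these same genes lay within 0.1 of it. Part of the excess over 33.3% was therefore set by that choice, and 33.3% is not the share expected by chance. Reads per kilobase are estimates from these steps, cover no error beyond counting, and quantile normalization blurs them. No column was left out.

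Knockout was compared with control by limma 3.58.1 in R 4.3.3 (lmFit, eBayes without trend) over the 9016 genes with 8 values and a mean of at least 1, with Benjamini-Hochberg adjustment over all of them. Blank cells were missing. In simulated data of the 8-library comparison (9016 genes, 200 changed by 1 log2 unit) the fit called 90.0% of changed genes and 12 unchanged ones. The simulated libraries were drawn independently, without the close knockout pairs of the real data. The simulation therefore does not give the sensitivity or the error rate for these libraries. Members outside it had an exact permutation test. The members, lists and alternatives were chosen with earlier results of these data known. Named were all members, and of each list the called genes, at most 6, by size of change. Same-numbered libraries deviated together (correlation 0.20 to 0.29 over 4 pairs, each above 0.1), so the replicate number was tried as a block. That reading rests on the data, and only 1 of 4 knockout libraries correlated best with its own number. The knockout libraries also split into the sets 1-2 and 3-4, so these correlations do not establish a pairing by number. Alternatives were other filters and scalings, a pseudocount of 1, a variance trend, the replicate block, a term for replicates 1-2 against 3-4, averaged close pairs, each set alone, a threshold of 0.01 on the adjusted p, and leaving out each library. Promoter stretches came from RefSeq. Some items are not reported here.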

Additional observations from a re-analysis of the deposited data

How the results depend on the processing

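MFAP2 kept its direction and its call in all 19 alternatives (change -1.004 to -0.85, limma adjusted p up to 0.0235). The number of called members was 1 of 9, with 13.1% of all tested genes called. It was 1 with averaged close pairs (1.20% of all tested genes) and 1 to 3 when 1 library was left out (4.34% to 15.0%). It was 2 with median centring (13.1%) or a further quantile normalization (13.4%). With a pseudocount of 1 (13.2%) or the replicate block (10.2%) it was 3, and with a term for replicates 1-2 against 3-4 (25.2%) it was 5. Replicates 1-2 alone gave 9 (59.7%) and replicates 3-4 alone gave 5 (33.1%), where the spread comes only from close pairs. With the replicate block EFEMP1 (1.29) and EFEMP2 (-1.21) passed, though neither did with averaged close pairs (limma adjusted p = 0.139 and 0.124), and EMILIN3 was lost; among the genes of all lists the block changed 1 other call, adding HTRA1 (limma adjusted p = 0.0294). The term for the sets added FBN2 (0.44), EFEMP1 (1.29), EFEMP2 (-1.21) and LTBP3 (-0.57). LTBP3 also passed with median centring (-0.57), a further quantile normalization (-0.58) and a pseudocount of 1 (-0.47), which did the same for EFEMP2 (-1.03). In replicates 1-2 alone, calls were added for FBN2 (0.74), EFEMP1 (0.70), EFEMP2 (-0.59), FBLN1 (-0.52), LTBP1 (-1.63), LTBP2 (-1.13) and LTBP3 (-0.83), and FBN1 was reversed (-0.22). In replicates 3-4 alone, FBN1 (0.69), EFEMP1 (1.89), EFEMP2 (-1.83) and LTBP3 (-0.31) passed, and FBLN1 (0.12) and LTBP1 (0.23) were reversed. The cause was not tested for any of these. Leaving out 1 library gave changes of 1.03 to 1.57 for EFEMP1, -1.46 to -0.96 for EFEMP2, -0.68 to -0.45 for LTBP3, 0.32 to 0.54 for FBN2, 0.07 to 0.44 for FBN1, -0.34 to -0.07 for FBLN1, -1.04 to -0.30 for LTBP1 and -0.76 to -0.36 for LTBP2. EFEMP1 and EFEMP2 passed without knockout library 1 (limma adjusted p = 0.0335 and 0.0383) or 2 (0.0442 and 0.0307), and LTBP3 without knockout library 4 (0.0290).

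Calls in the list of elastic fibre and microfibril partners (3 of 13 tested) were 5 with no filter, which added 11 tested genes of the list. With a mean of at least 3 there was 1 call, and VCAN and EMILIN3 did not pass that filter and were not tested there. Calls were 0 with averaged pairs (3 at an unadjusted limma p under 0.05). The same was so in the fits without control library 1, 2 or 4. There were 9 calls in replicates 1-2, 5 in replicates 3-4 and 0 to 3 without 1 library. ITGB5 and EMILIN3 were lost with no filter (limma adjusted p = 0.0512 and 0.0596). Calls in the latent TGF-beta list (6 of 18 tested) were 2 with averaged pairs, 17 in replicates 1-2 and 3 to 7 without 1 library. Those in the response list (8 of 15 tested) were 3 with averaged pairs, 14 in replicates 1-2 and 8 in each fit without 1 library. Of all tested genes 8.30% were called with no filter, 15.6% with a mean of at least 3 and 1.20% with averaged pairs. That share was 59.7% in replicates 1-2 alone, 33.1% in replicates 3-4 alone and 4.34% to 15.0% without 1 library. MFAP5 rests on about 1 read per kilobase or fewer.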
